A study of Mus musculus with 15 samples.

Results

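Ccl2, Ccl3, Ccl4, Ccl5, Ccl6, Ccl7, Ccl9, Ccl12, Ccl17 and Ccl22 encode CC chemokines, and their rows were taken by gene name from the expression table, which gave 10 genes of the 20089 genes with a complete entry. RNA-seq was performed on mouse bone marrow-derived macrophages (BMDMs), cells grown out of the bone marrow of wild-type C57BL/6 mice with the growth factor M-CSF, for 3 days per the labels, in 15 samples that fell into 5 groups of 3 replicates. Control cells received M-CSF alone. The other groups received M-CSF with RANKL or with LPS for 4 h or 72 h (3 days in the labels), each at 100 ng/mL per the methods, and every group therefore shared M-CSF. No mutant line or transgene was used, and the labels do not say whether replicates were separate animals or separate cultures, so that p-values measure the spread between these samples, which may be technical. The titles of the control samples give no time, and no group was titled as M-CSF alone at 72 h. Time under a stimulus therefore cannot be told apart from time in culture.

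CC chemokines are small secreted proteins with adjacent cysteines near their amino terminus, and they guide leukocytes by binding G protein-coupled receptors on the cell that moves. Several ligands share a receptor: Ccl2, Ccl7 and Ccl12 act on Ccr2, the receptor of inflammatory monocytes. Ccl3, Ccl5, Ccl6 and Ccl9 act on Ccr1, Ccl4 is a close relative of Ccl3, and Ccl17 and Ccl22 act on Ccr4 of T cells. LPS, a bacterial glycolipid sensed by TLR4, induces many of these genes in macrophages through NF-κB and interferon signaling. RANKL turns the same precursors into osteoclasts, the cells that resorb bone.

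The genes lay in 3 places of the mouse genome (GRCm38, GENCODE M21 annotation). Ccl2 (chr11:82035571-82037453), Ccl7 (chr11:82045712-82047525) and Ccl12 (chr11:82101845-82103400), all on the plus strand, filled 67.8 kb of chromosome 11. A second cluster of 138.9 kb on chromosome 11 held Ccl5 (chr11:83525778-83530518), Ccl9 (chr11:83572919-83578636), Ccl6 (chr11:83587882-83593087) and Ccl3 (chr11:83647844-83649355) on the minus strand, and Ccl4 (chr11:83662584-83664683) on the plus strand. Ccl22 (chr8:94745590-94751699) and Ccl17 (chr8:94810453-94812036) lay on the plus strand of chromosome 8, within 66.4 kb. Although the genes of a cluster are relatives, 7 of the 10 shared no stretch of 30 bases with a transcript of any other annotated gene. The shared part was 0.861% of such stretches in Ccl5, 1.08% in Ccl6 and 4.18% in Ccl9, where reads could have been divided among genes. Ccl2 overlapped Gm17268 and Ccl6 overlapped E230016K23Rik on the opposite strand. Whether counting used the strand is not stated. The search for shared stretches covered both strands, and Ccl2 shared none, so that its overlap was not of transcript sequence at this length. For Ccl6 only reads from the 1.08% of stretches shared with 1 other gene could be in doubt.

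The 250 bases before the transcription start are shown for 4 genes that cover the kinds of response described next: Ccl3, which rose most with LPS at 4 h, Ccl17, which was barely seen without LPS, and the neighbors Ccl9 and Ccl6, of which Ccl9 rose with LPS at 4 h and Ccl6 did not pass the test. The sequences are from RefSeq (GRCm38.p6), are written 5′ to 3′ on the strand of the gene, and end at the base before the start. They cover chr11:83649379-83649628 (minus strand) for Ccl3, chr11:83578637-83578886 (minus strand) for Ccl9, chr11:83593088-83593337 (minus strand) for Ccl6, and chr8:94810203-94810452 (plus strand) for Ccl17. Capitals mark matches to 1 of 4 motifs searched on both strands: the NF-κB consensus, the AP-1 site (TGA, any base, then TCA), the interferon-stimulated response element (GAAA on both sides of any 2 bases) and the STAT6 site (TTC, any 4 bases, then GAA).
Ccl3: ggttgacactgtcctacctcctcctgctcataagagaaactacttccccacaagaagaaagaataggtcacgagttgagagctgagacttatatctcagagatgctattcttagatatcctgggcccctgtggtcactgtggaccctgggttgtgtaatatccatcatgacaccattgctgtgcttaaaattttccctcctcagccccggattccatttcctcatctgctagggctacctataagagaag
Ccl9: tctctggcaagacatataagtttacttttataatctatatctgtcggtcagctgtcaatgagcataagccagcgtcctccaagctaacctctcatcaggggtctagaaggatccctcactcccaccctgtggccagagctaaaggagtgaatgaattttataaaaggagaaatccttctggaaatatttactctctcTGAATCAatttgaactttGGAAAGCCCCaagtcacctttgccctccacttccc
Ccl6: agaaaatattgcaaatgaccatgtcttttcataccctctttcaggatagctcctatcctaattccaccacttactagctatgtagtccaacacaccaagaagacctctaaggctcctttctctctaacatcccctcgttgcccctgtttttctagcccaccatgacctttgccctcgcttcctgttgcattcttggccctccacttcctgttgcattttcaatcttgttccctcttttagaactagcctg
Ccl17: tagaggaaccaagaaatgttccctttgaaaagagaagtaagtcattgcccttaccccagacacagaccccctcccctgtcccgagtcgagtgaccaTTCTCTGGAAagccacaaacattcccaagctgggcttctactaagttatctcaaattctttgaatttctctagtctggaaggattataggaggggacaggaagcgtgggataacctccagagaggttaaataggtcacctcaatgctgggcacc
The Ccl9 window held an AP-1 match from 53 to 47 bases before the start and an NF-κB match, on the other strand, from 35 to 26 bases before it. No matches overlapped each other. The Ccl17 window held a STAT6 match from 154 to 145 bases before the start, and the windows of Ccl3 and Ccl6 held none of the 4 motifs. Entries were found for 6 of the 10 genes, and the windows of Ccl12 and Ccl22 also held no match. Of 32851 mouse promoter windows of the same length, 7.25% held the NF-κB consensus, 6.75% the AP-1 site, 2.98% the interferon element and 5.85% the STAT6 site. A match is a run of letters, and no binding was measured.

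Expression was given as FPKM, fragments scaled to transcript length and to library size, and levels are on that scale unless stated. The steps between low values allowed the fragments behind each value to be counted, which gave 18306183 to 20330206 fragments per sample on the listed genes. All 10 genes passed the filter of a mean of at least 0.1 FPKM, as did 11743 genes in all. Fold changes are differences of log2(FPKM + 0.1) from a limma fit of all 5 groups, which understates changes of genes near 0. A gene was called changed above 1.5-fold or below 0.66-fold with an unadjusted p under 0.05, the thresholds of the study, and Benjamini-Hochberg adjusted p-values over all tested genes are given beside the calls. As a check of the labels, the osteoclast protease Ctsk was 24.0 ± 8.73 in control and 1060 ± 568 after RANKL for 72 h, and Il6 was 0.559 ± 0.208 in control and 272 ± 8.93 after LPS for 4 h (SD, n = 3). All 8 macrophage markers were detected in each group, and their summed level ranged from 6046 to 17491 FPKM over the 15 samples, the highest in replicate 3 of LPS 72 h.

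In unstimulated BMDMs the 10 genes spanned 4 orders of magnitude in level per length. Ccl6, a chemokine of resident myeloid cells, was the highest at 1293 ± 355 FPKM, followed by Ccl2, which draws in monocytes, at 808 ± 170 (SD, n = 3). Ccl5 (417 ± 316), Ccl7 (354 ± 96.3) and Ccl9 (328 ± 58.5) came next, and the samples of each neighboring pair in this order overlapped. Ccl12 (185 ± 105), Ccl3 (180 ± 50.9) and Ccl4 (129 ± 42.5) formed a lower tier that did not overlap Ccl9. Ccl22 was at 5.21 ± 4.05 and Ccl17 was barely seen at 0.0612 ± 0.0268, which rested on 3, 5 and 2 fragments. The order changed with each stimulus, as shown next and in the plot of levels by sample.

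**Figure D1:**
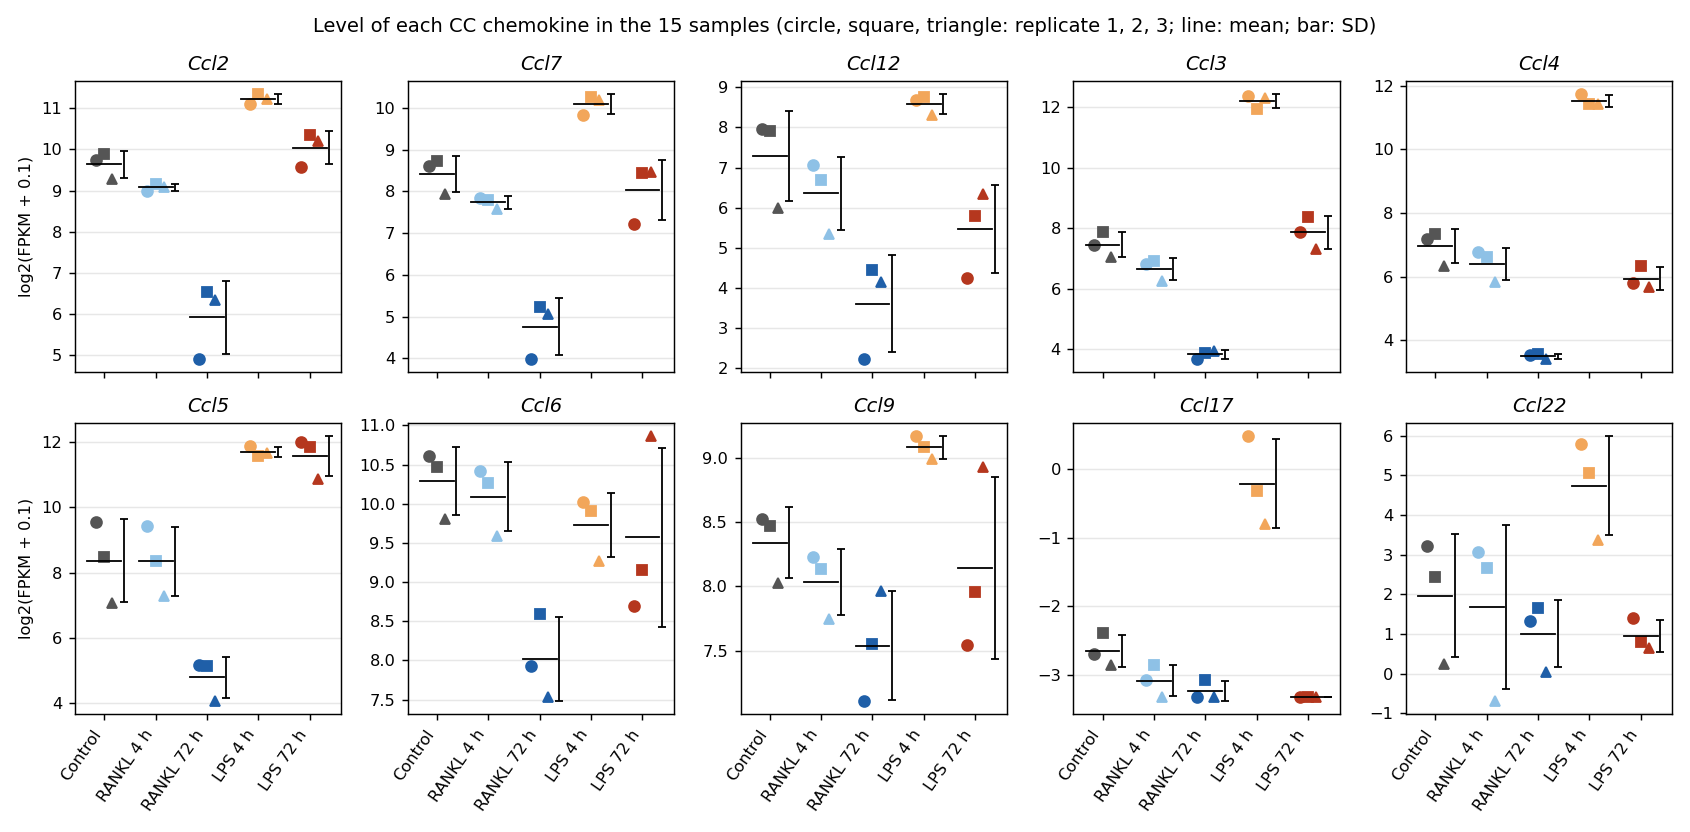
Level of each of the 10 CC chemokine genes as log2(FPKM + 0.1) in the 15 samples, with 1 symbol per replicate, a line at the group mean and a bar for the SD; vertical scales differ between genes. RANKL 72 h samples lay below all control samples for 9 genes, and LPS 4 h samples above them for 9.

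The summed level of the chemokines was lowest with RANKL at 72 h and highest with LPS at 4 h. The sum of the 10 genes was 4518, 4152 and 2428 FPKM in control and 494, 789 and 609 after RANKL for 72 h. LPS brought it to 17605, 15498 and 15947 at 4 h, when the 10 genes made up 3.65% ± 0.0236 of all FPKM listed (SD, n = 3), and it was still 5893, 6645 and 6028 at 72 h. The corresponding share was 0.834% ± 0.230 in control and 0.155% ± 0.0332 after RANKL for 72 h. The sum was 5.77-fold lower with RANKL at 72 h, 4.57-fold higher with LPS at 4 h and 1.73-fold higher with LPS at 72 h, and the samples of control overlapped in none of these. With RANKL at 4 h the sum was 1.30-fold lower, and its samples overlapped control (exact two-sided permutation p = 0.4, n = 3 a group). An exact two-sided permutation test of 3 against 3 gave p = 0.1 for each of the other 3, the smallest p this design allows, and 0.25 after adjustment over the 20 tests of sums and ratios, so that none passed. The higher sum with LPS at 72 h rested on Ccl5: without it the LPS 72 h sums were 1826, 2939 and 4170 FPKM, against 3760, 3793 and 2295 in control.

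The leading gene also changed. Ccl6 made up 35.2% ± 1.33 of the summed FPKM in control, 39.6% ± 2.03 after RANKL for 4 h and 42.9% ± 10.9 after RANKL for 72 h, when Ccl9 was next at 30.9% ± 8.95 (SD, n = 3). In RANKL 72 h replicate 3 the order was turned, with Ccl9 at 40.9% and Ccl6 at 30.3%. After LPS for 4 h, Ccl3 held 28.8% ± 3.08, Ccl5 20.4% ± 0.959 and Ccl4 18.0% ± 1.13, and Ccl6 only 5.31% ± 1.27. After LPS for 72 h, Ccl5 held 69.0%, 55.8% and 30.8% in replicates 1, 2 and 3, and in replicate 3 Ccl6 held 30.9%, against 7.04% and 8.54% in the others.

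**Figure D2:**
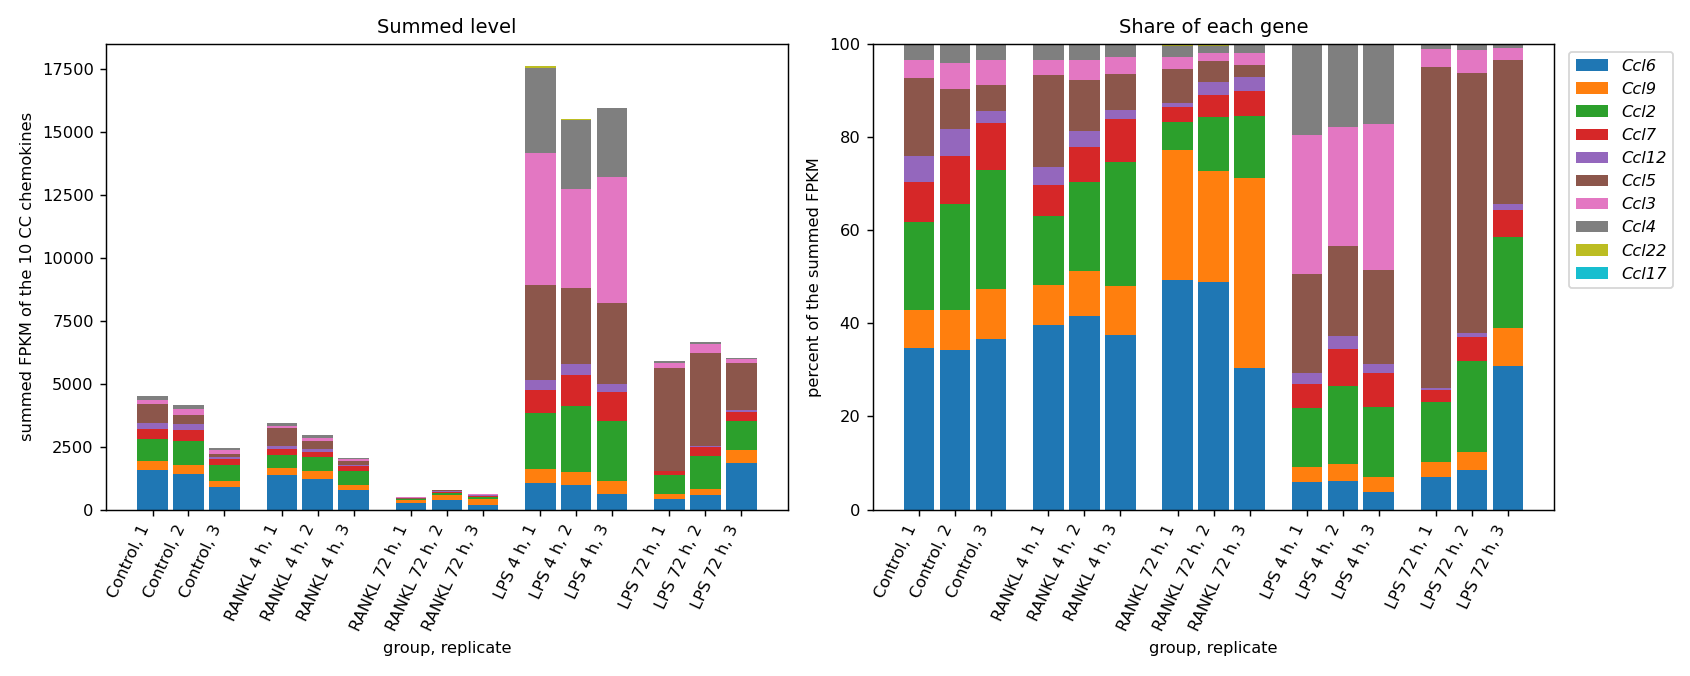
Stacked bars of the 10 CC chemokine genes in each of the 15 samples, as summed FPKM (left) and as percent of that sum (right). The sum reached 15498 to 17605 FPKM in LPS 4 h and 494 to 789 FPKM in RANKL 72 h. Ccl6 led in RANKL 72 h samples 1 and 2, Ccl3 in the LPS 4 h samples, and Ccl5 in LPS 72 h samples 1 and 2.

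Few of the genes were called changed after RANKL for 4 h, and most were lower after RANKL for 72 h. At 4 h, 1 of 10 genes was called changed, against 2.56% of all tested genes. This was Ccl3, a ligand of Ccr1, at 112, 122 and 76.1 FPKM against 174, 234 and 132 in control. The samples of both groups did not overlap, and the log2 fold change was -0.79 ± 0.26 (SE, adjusted p = 0.578), so that the call rested on the unadjusted p. Ccl7 was called as well with the replicate number as a block in the fit, which gave 2 genes. The block called 360 of all 11743 tested genes, against 301 in the main fit. Without Control replicate 2 or without RANKL 4 h replicate 3 Ccl3 was not called (log2 fold change -0.58 in both). Without Control replicate 3 there were 4 called genes, and without RANKL 4 h replicate 1 there were 2. Shares of all tested genes were not computed for these refits, so that a shift of the members alone cannot be read from them. The median log2 fold change of the 10 genes was -0.50, and that of all tested genes was 0.00. For 4 genes every RANKL 4 h sample lay below every control sample, against 4.71% of tested genes. For none did they all lie above, against 6.05%.

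After 72 h of RANKL, 8 of the 10 genes were lower and none was higher, and 7 were lower with an adjusted p under 0.05, against 9.04% and 7.54% of tested genes. For 9 genes every RANKL sample lay below every control sample, against 16.1% of tested genes. The median log2 fold change was -3.52 for the 10 genes and 0.16 for all tested genes. Sample medians were 0.22 higher on the log2 scale than in control, and fold changes relative to that shift were lower by the same amount, which brought Ccl17 among the called genes. In such bulk samples fewer cells of a type and less RNA per cell cannot be told apart.

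The Ccr2 ligands fell together. Ccl2 was 29.6, 91.6 and 80.6 FPKM after RANKL for 72 h and 858, 948 and 619 in control. Its log2 fold change was -3.72 ± 0.34 (SE, adjusted p = 6.88e-06). The groups were far apart, with RANKL replicate 1 the lowest sample. Ccl7, whose gene adjoins Ccl2, was 15.7, 37.6 and 33.2 against 390, 427 and 245. Ccl12, the third ligand of Ccr2 in the cluster, was 4.58, 21.7 and 17.7 against 251, 240 and 63.8. Both were lowest in the same RANKL library, and neither overlapped control. The log2 fold changes were -3.67 ± 0.35 for Ccl7 (adjusted p = 1.19e-05) and -3.68 ± 0.68 for Ccl12 (adjusted p = 0.00152). For Ccl12 the value was -2.99 without RANKL 72 h replicate 1 and -4.33 without Control replicate 3.

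Ccl3, Ccl4 and Ccl5 fell to a similar extent. Ccl3 was 12.7, 14.5 and 15.4 FPKM after RANKL for 72 h, below its 4 h levels given above. Ccl4 was 11.5, 11.7 and 10.5 against 145, 162 and 81.2 in control. The highest and lowest of these samples differed by 1.22-fold for Ccl3 and 1.11-fold for Ccl4, less than for any other member with fragments in all 3 samples of this group. The log2 fold changes against control were -3.62 ± 0.26 for Ccl3 (SE, adjusted p = 9.42e-07) and -3.46 ± 0.27 for Ccl4 (adjusted p = 1.77e-06). Ccl5, also known as RANTES, was 35.9, 35.1 and 16.7 against 757, 360 and 133. Its control samples were spread over a 5.69-fold range, and its log2 fold change was -3.58 ± 0.59 (adjusted p = 0.000672), -2.98 without Control replicate 1 and -4.24 without Control replicate 3.

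Ccl6 and Ccl9 fell less, and Ccl9 least. Ccl6 was 244, 386 and 185 FPKM against 1566, 1422 and 892 in control (log2 fold change -2.28 ± 0.47, SE, adjusted p = 0.00278). Ccl9, known from osteoclast cultures as MIP-1γ, was 138, 187 and 249 against 368, 355 and 261. The groups of Ccl9 did not overlap, but the nearest samples were close. Its log2 fold change of -0.80 ± 0.30 had an adjusted p = 0.0545, and the call was lost without Control replicate 1 (-0.71), without Control replicate 2 (-0.74) or without RANKL 72 h replicate 1 (-0.59). Relative to the sample medians it was -1.02 (adjusted p = 0.0398). The ratio of Ccl6 to Ccl9 FPKM was 4.25, 4.01 and 3.42 in control and 1.77, 2.06 and 0.742 after RANKL for 72 h, a 2.78-fold drop with no overlap (exact two-sided permutation p = 0.1, n = 3 a group, adjusted p = 0.25).

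Ccl22 and Ccl17, the Ccr4 ligands, did not pass the test. Ccl22 was 2.40, 3.07 and 0.930 FPKM against 9.18, 5.36 and 1.08 in control, and the groups overlapped (log2 fold change -0.96 ± 0.95, 95% confidence interval -2.99 to 1.08, adjusted p = 0.465). Ccl17 was seen as 0, 1 and 0 fragments against 3, 5 and 2, a ratio of 0.104 with a 95% counting interval of 0.0024 to 0.733. This interval covers counting error only. Its fitted log2 fold change of -0.59 ± 0.31 (SE, adjusted p = 0.154) depended on the setting, and Ccl17 was called lower with a pseudocount of 0.01 (-2.26) and with voom on the recovered fragments (-2.28).

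**Figure D3:**
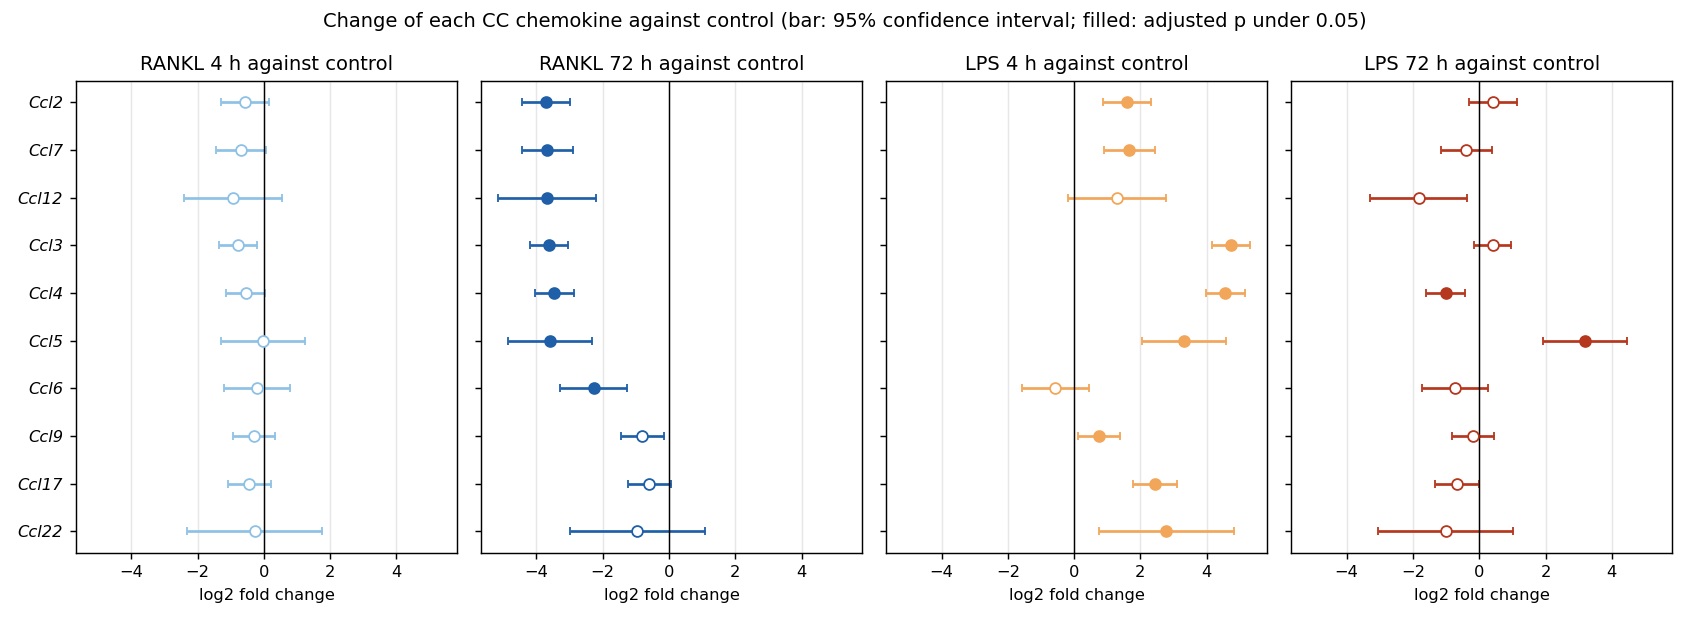
log2 fold change of each gene against control in the limma fit, with 95% confidence intervals, for both stimuli at both times (n = 3 a group); filled symbols have a fold past the limit and an adjusted p under 0.05. RANKL has no filled symbol at 4 h and 7 below 0 at 72 h, and LPS has 8 above 0 at 4 h and 1 on each side at 72 h.

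Other cell types also moved in the RANKL 72 h samples. The summed level of 8 neutrophil markers was 2425 to 6313 FPKM in control and 407 to 1900 after RANKL for 72 h, with 4 of 8 lower. Of 6 basophil and mast cell markers 6 were lower, with sums of 23.9 to 67.6 in control and 0.798 to 3.87 after RANKL, and of 6 B cell markers 4 were lower, with sums of 16.6 to 21.3 and 5.31 to 8.41. The 8 stromal markers summed to 139 to 307 in control and 388 to 1818 after RANKL, with 6 higher, and 9 of 10 osteoclast genes were higher. Of 7 dendritic cell markers 3 were lower and none was higher. Among all tested genes 9.04% were lower and 20.2% higher. No marker of these lists was at 0 in all RANKL 72 h samples. Their part in the fall of the chemokines was not tested.

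LPS for 4 h raised most of the chemokines, by widely different amounts. In all, 8 of 10 genes were higher and none was lower, all 8 with an adjusted p under 0.05, against 8.75% and 8.43% of tested genes. For 9 genes all LPS samples lay above all control samples, against 10.6% of tested genes. Sample medians were 0.57 lower on the log2 scale than in control. The median log2 fold change was 2.05 for the 10 genes and -0.52 for all tested genes. Relative to the sample medians every fold change was higher by that shift. With that centering, Ccl12 was called too, and the split of all called genes went from 1028 higher and 4818 lower to 2049 higher and 1675 lower.

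Ccl3, Ccl4 and Ccl5 had the largest fitted fold changes. Ccl3 was 5236, 3929 and 4990 FPKM after LPS for 4 h, far above the highest control sample at 234. Its log2 fold change was 4.74 ± 0.26 (SE, adjusted p = 1.5e-08). Ccl4 was 3395, 2746 and 2727, with a log2 fold change of 4.57 ± 0.27 (adjusted p = 2.6e-08). Ccl5 was 3768, 3024 and 3219, with a log2 fold change of 3.33 ± 0.59 (adjusted p = 0.00031). In control Ccl5 differed by 5.69-fold among replicates, and after LPS by 1.25-fold. Its log2 fold change was 3.92 without Control replicate 1 and 2.67 without Control replicate 3.

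Of the Ccr2 ligands, Ccl2 and Ccl7 rose and Ccl12 did not pass the test. Ccl2 was 2222, 2601 and 2398 FPKM (log2 fold change 1.59 ± 0.34, SE, adjusted p = 0.00115). Ccl7 was 906, 1229 and 1162 (log2 fold change 1.66 ± 0.35, adjusted p = 0.00121). Ccl12 was 408, 436 and 317, above all 3 control samples, but control replicate 3 was far below the other two and the log2 fold change of 1.29 ± 0.68 did not pass the test (adjusted p = 0.119). It passed relative to the sample medians (1.86), with the 2 groups alone in the fit (1.29) and with voom on the recovered fragments (1.29).

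Ccl6 and Ccl9 parted. Ccl9 was 574, 543 and 509 FPKM, above all control samples (log2 fold change 0.74 ± 0.30, SE, adjusted p = 0.0439). The call was lost without Control replicate 3 (0.58), without LPS 4 h replicate 1 (0.70) or without LPS 4 h replicate 2 (0.74). Ccl6 was 1038, 956 and 615, overlapping control (log2 fold change -0.57 ± 0.47, adjusted p = 0.311), and relative to the sample medians its log2 fold change was -0.00071. The ratio of Ccl6 to Ccl9 was 1.81, 1.76 and 1.21, a 2.47-fold drop from control with no overlap (exact two-sided permutation p = 0.1, n = 3 a group, adjusted p = 0.25). The NF-κB and AP-1 matches of the Ccl9 window, and their absence from the Ccl6 and Ccl3 windows, are printed above. Their part in these responses was not tested.

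The Ccr4 ligands, usually made by dendritic cells and alternatively activated macrophages, rose from low levels. Ccl22 was 55.6, 33.5 and 10.2 FPKM against 9.18, 5.36 and 1.08 in control (log2 fold change 2.78 ± 0.95, SE, adjusted p = 0.0211). The call was lost without Control replicate 3 (1.91) and without LPS 4 h replicate 1 (2.25). The log2 fold change was 3.40 without Control replicate 1 and 3.47 without LPS 4 h replicate 3. Each of these refits broke a pair of same-numbered samples, as leaving out 1 replicate does for every gene. The part of this in the lost calls was not tested. When limma took the replicate number as a block over all 15 samples, LPS 72 h included, Ccl22 kept its call (log2 fold change 2.78, unadjusted p = 9.39e-05). The main limma fit gave an unadjusted p = 0.0110 for Ccl22. Ccl17 was 1.30, 0.704 and 0.475 FPKM, or 69, 39 and 26 fragments, against 3, 5 and 2 in control. The fragment totals of 134 and 10 gave a ratio of 13.3 with a 95% counting interval of 7.02 to 28.4. In the fit the log2 fold change of Ccl17 was 2.44 ± 0.31 (adjusted p = 1.82e-05).

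After 72 h of LPS the samples of 7 of the 10 genes overlapped control. All LPS samples lay above all control samples for 1 gene and below them for 2, against 23.1% and 21.0% of tested genes. Against control, 4 of 10 were called, 1 higher and 3 lower, against 31.0% of tested genes, and 2 had an adjusted p under 0.05, against 27.4%, shares near those of all genes. Ccl5 stayed high at 4067, 3705 and 1858 FPKM (log2 fold change against control 3.20 ± 0.59, SE, adjusted p = 0.00105), with 3.79 without Control replicate 1 and 2.54 without Control replicate 3. Ccl4 was 55.3, 81.1 and 51.4, with the highest of them just below the lowest control sample of 81.2 (log2 fold change -1.01 ± 0.27, adjusted p = 0.0108). Ccl3, in contrast, was 234, 334 and 159, which overlapped control (log2 fold change 0.40 ± 0.26, adjusted p = 0.25), and it was called higher without LPS 72 h replicate 3 (0.67) or without Control replicate 2 (0.61).

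Ccl12 was 18.9, 55.6 and 81.6 FPKM after LPS for 72 h, and the groups overlapped because control replicate 3 was at 63.8. It was called lower (log2 fold change -1.82 ± 0.68, SE, adjusted p = 0.0517), but not without Control replicate 1 (-1.49), Control replicate 2 (-1.52) or LPS 72 h replicate 1 (-1.22), and it was -2.47 without Control replicate 3. Ccl17 had 0 fragments in all 3 samples, and its call rested on values near 0: it was lost when any 1 of the samples but Control replicate 3 was left out, and with a pseudocount of 1 (log2 fold change -0.09). The ratio of Ccl17 fragments to control was 0, with a counting interval up to 0.453. Without Control replicate 1 or without LPS 72 h replicate 1 the number of called genes was 2.

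The other members did not pass the test at 72 h of LPS. Ccl2 was 766, 1304 and 1173 FPKM (log2 fold change 0.41 ± 0.34, SE), Ccl7 149, 347 and 354 (-0.39 ± 0.35), and Ccl22 2.54, 1.64 and 1.47 (-1.02 ± 0.95). Ccl6 was 415, 568 and 1864 and Ccl9 186, 249 and 486, with replicate 3 the highest in both. Without LPS 72 h replicate 3 Ccl6 was called lower (log2 fold change -1.37). The same library had the largest sums of macrophage (17491, against 6086 and 7876 FPKM), neutrophil (198, against 8.04 and 9.56) and stromal markers (458, against 84.5 and 78.3) of its group. All 8 neutrophil markers were lower than in control, as were 6 of 6 basophil and mast cell markers and 5 of 6 B cell markers. Of 7 dendritic cell markers 3 were lower and none was higher. Among all tested genes 16.1% were lower. The part of other cells in these levels was not tested.

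The ratios between neighboring genes were compared within each sample. Ccl3 to Ccl4 was 1.20, 1.44 and 1.63 in control and lay between 1.04 and 1.83 in the RANKL and LPS 4 h samples, against 4.24, 4.11 and 3.10 after LPS for 72 h. Ccl2 to Ccl7 was 2.20, 2.22 and 2.53 in control and 5.16, 3.76 and 3.32 after LPS for 72 h. Ccl2 to Ccl12 was 3.42, 3.95 and 9.71 in control and 40.5, 23.5 and 14.4 after LPS for 72 h. In all 3 ratios the LPS 72 h samples lay above the 12 others. They were 2.68-fold, 1.73-fold and 4.70-fold above control (exact two-sided permutation p = 0.1 each, the smallest possible with n = 3 a group, adjusted p = 0.25).

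**Figure D4:**
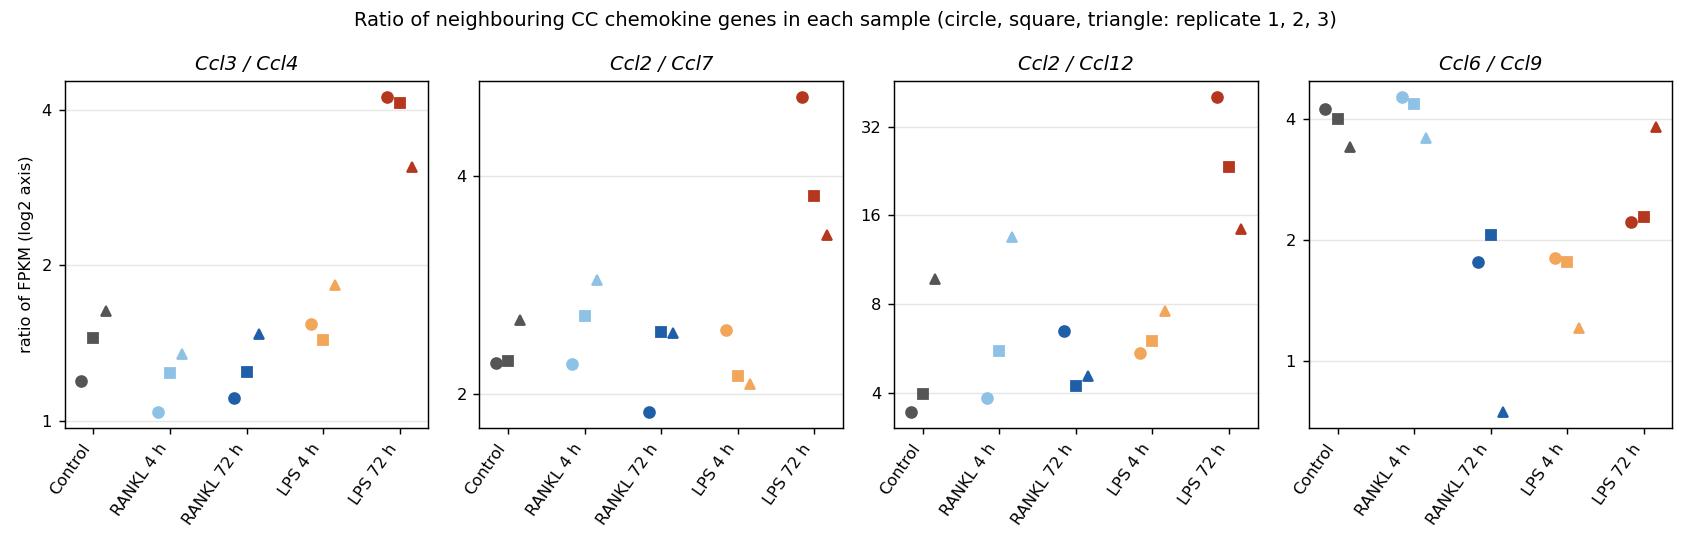
Ratios of FPKM between genes of the same cluster in each of the 15 samples, on log2 axes. The LPS 72 h samples lie above all others for Ccl3 to Ccl4 (3.10 to 4.24), Ccl2 to Ccl7 (3.32 to 5.16) and Ccl2 to Ccl12 (14.4 to 40.5), and Ccl6 to Ccl9 is lower than control in the RANKL 72 h (0.742 to 2.06) and LPS 4 h (1.21 to 1.81) samples.

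From 4 h to 72 h of LPS, 8 of 10 genes were lower, against 14.3% of tested genes, and Ccl5 and Ccl6 did not pass the test. Sample medians rose by 0.65 on the log2 scale between these groups. The falls ranged from a log2 difference of -0.94 ± 0.30 in Ccl9 (SE, adjusted p = 0.0122) to -5.58 ± 0.27 in Ccl4 (adjusted p = 9.04e-09), with -4.34 ± 0.26 in Ccl3 (adjusted p = 4.79e-08) and -1.19 ± 0.34 in Ccl2 (adjusted p = 0.00657). Ccl5 differed by -0.13 ± 0.59, with a 95% confidence interval of -1.40 to 1.14. Ccl17 had 134 fragments at 4 h and 0 at 72 h. Set against an assumed floor of 3 fragments over the group, this was a 43.7-fold fall, which is not a confidence limit. The difference was -3.80 in Ccl22 (adjusted p = 0.00281), or -4.49 without LPS 4 h replicate 3. It was -3.11 in Ccl12 (adjusted p = 0.00114), or -2.51 without LPS 72 h replicate 1. From 4 h to 72 h of RANKL, 7 of 10 genes were lower, against 8.24% of tested genes: Ccl2, Ccl3, Ccl4, Ccl5, Ccl6, Ccl7 and Ccl12, with log2 differences from -2.07 to -3.56. For Ccl12 the difference was -2.75, or -2.05 without RANKL 72 h replicate 1. The comparisons of 1 time with another share samples with those against control.

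Set against each other at the same time, the chemokines were lower with RANKL than with LPS. At 4 h, 9 of 10 genes were lower, against 9.31% of tested genes, from -1.04 ± 0.30 in Ccl9 (SE, adjusted p = 0.00764) to -5.53 ± 0.26 in Ccl3 (adjusted p = 4.81e-09) on the log2 scale. Ccl22 was -3.06 ± 0.95 (adjusted p = 0.0125), and -1.87 without RANKL 4 h replicate 3. It was -3.75 without LPS 4 h replicate 3 and also -3.75 without RANKL 4 h replicate 1. Ccl6 was the exception (0.36 ± 0.47, and -0.21 relative to the sample medians). At 72 h, 7 of 10 were lower, against 13.8% of tested genes. Ccl5 differed most, at -6.78 ± 0.59 (adjusted p = 1.33e-06), with 16.7 to 35.9 FPKM under RANKL and 1858 to 4067 under LPS. Ccl2 (-4.13 ± 0.34), Ccl3 (-4.02 ± 0.26), Ccl7 (-3.28 ± 0.35), Ccl4 (-2.44 ± 0.27) and Ccl6 (-1.55 ± 0.47) followed, with Ccl6 at -0.90 without LPS 72 h replicate 3.

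Ccl12 was also lower with RANKL at 72 h (log2 difference -1.86 ± 0.68, SE, adjusted p = 0.0395), but its groups overlapped. The call was lost without LPS 72 h replicate 2 (-1.69), LPS 72 h replicate 3 (-1.41) or RANKL 72 h replicate 1 (-1.16), and the value was -2.47 without LPS 72 h replicate 1. Ccl9 (-0.60 ± 0.30, adjusted p = 0.112), Ccl22 (0.06 ± 0.95) and Ccl17 (0.08 ± 0.31) did not pass the test at 72 h.

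In 4 of the 5 groups replicate 3 was the lowest sample in some chemokines and in several cell type marker lists. Of 8 listed dendritic cell markers 7 were analysed here, Ccr7 among them. Their summed FPKM in replicates 1, 2 and 3 was 45.5, 33.2 and 18.1 in control. After RANKL it was 47.6, 35.1 and 12.3 at 4 h and 35.4, 27.9 and 9.70 at 72 h, and after 4 h of LPS it was 89.6, 83.4 and 38.3. The higher sum with LPS was not shared by most of the list. Against control 1 of the 7 markers was higher and 1 lower, against 8.75% and 41.0% of tested genes. Their median log2 fold change was -0.44. Replicate 3 was the lowest of its group in these 4 groups, and so were Ccl22 in all 4 and Ccl5 in 3 of them, with replicate 2 the lowest for Ccl5 after LPS for 4 h. Neither was particular to these genes: Ccl6 and the sums of the macrophage, T and NK cell, B cell and stromal markers were also lowest in replicate 3 of the same 4 groups. After LPS for 72 h the dendritic cell marker sums were 12.2, 13.6 and 17.5. There replicate 3 was the highest in this sum, in Ccl6 and in those other 4 marker sums, but the lowest in Ccl22 and Ccl5. The T and NK cell sums, for example, were 22.7, 12.3 and 11.4 in control and 6.02, 7.11 and 14.9 after LPS for 72 h. A setting without replicate 3 of every group was added after the data were seen. In it Ccl22 was called lower with RANKL at 72 h (log2 fold change -1.34) and with LPS at 72 h (-1.73). This was not particular to Ccl22: with LPS at 72 h Ccl6 (-1.62) and Ccl9 (-0.75) were called lower as well. Of 80 member differences in this setting, 7 gained a call, 1 lost it and 2 changed sign. The part of these cells in the chemokine levels was not tested.

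**Figure D5:**
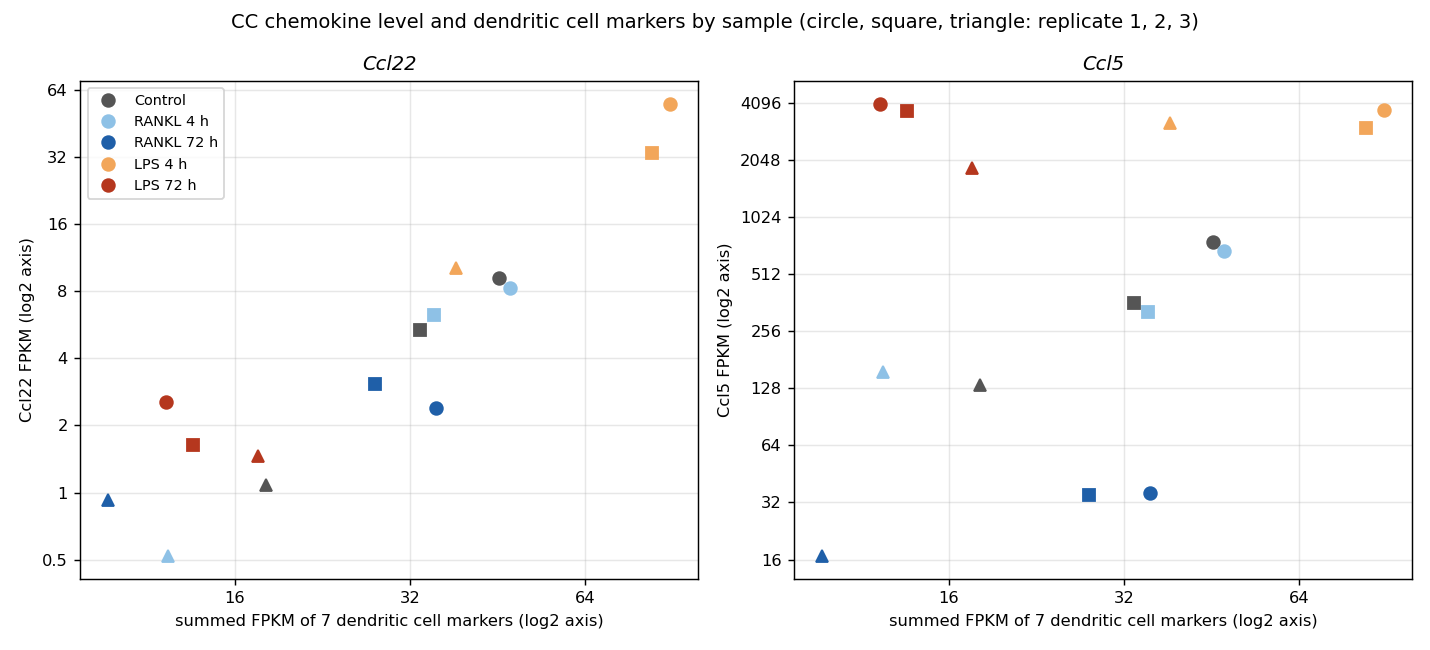
FPKM of Ccl22 (left) and Ccl5 (right) against the summed FPKM of 7 dendritic cell markers in the 15 samples, on log2 axes, with color for the group and symbol for the replicate. Outside LPS 72 h, the replicate 3 sample of each group has the lowest marker sum (9.70 to 38.3 FPKM) and the lowest Ccl22 of its group.

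Of 14 other CC ligands listed, 13 were analysed here and 6 passed the filter on low values, while 4 were at 0 in every sample. After LPS for 4 h 3 of the 6 were higher, against 8.75% of tested genes, and none was lower, against 41.0%. Ccl20, the ligand of Ccr6, was 8.75, 4.42 and 2.76 FPKM against at most 0.0623 in control (adjusted p = 1.05e-06). Ccl24, which draws in eosinophils, was 1.75, 1.74 and 1.48 against 0.748, 0.308 and 1.42 (adjusted p = 0.0333). After RANKL for 72 h 1 of the 6 was lower, against 9.04% of tested genes: Ccl8, a close relative of Ccl2, was 9.50, 13.5 and 4.36 against 68.7, 63.3 and 29.3 (log2 fold change -2.60, adjusted p = 0.000611). It did not pass the test with LPS at 4 h (0.39) or at 72 h (0.43). After LPS for 72 h, when 14.9% of tested genes were higher and 16.1% lower, Ccl25 was higher (3.69, 3.61 and 1.84 against 1.58, 1.18 and 1.80, adjusted p = 0.0193) and Ccl24 lower (log2 fold change -1.27, adjusted p = 0.0298).

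Of 15 CC and atypical CC receptors 10 passed the filter. After RANKL for 72 h 6 were lower, against 9.04% of tested genes, and none was higher, against 20.2%. Of the 6, 4 had an adjusted p under 0.05, against 7.54% of tested genes. Among those named, Ccr3 (log2 fold change -1.12, adjusted p = 0.0142), Ccr7 (-2.91, adjusted p = 0.0447), Ccr9 (-2.96, adjusted p = 0.0068) and Ccrl2 (-1.09, adjusted p = 0.104) were lower. With LPS at 72 h Ccr3 (-1.73), Ccr7 (-2.60) and Ccr9 (-2.84) were called lower as well. Ccr1, which binds Ccl3, Ccl6 and Ccl9, was 57.8, 37.2 and 66.8 against 84.3, 48.9 and 61.9 and did not pass the test (-0.28).

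With LPS Ccr2 was lower at both times, and Ccr1 was higher at 72 h. Ccr2, the receptor of Ccl2, was 19.7, 23.6 and 35.7 FPKM in control, 3.65, 6.44 and 4.94 after LPS for 4 h and 1.28, 0.954 and 4.06 after LPS for 72 h (log2 fold change -2.36, adjusted p = 0.00175, and -3.81, adjusted p = 0.000138). With RANKL at 72 h it was 23.5, 30.7 and 6.91 and did not pass the test. Ccr1 was 57.0, 28.9 and 38.9 at 4 h of LPS and did not pass the test (log2 fold change -0.66, adjusted p = 0.101). At 72 h of LPS it was 204, 141 and 108 (1.20, adjusted p = 0.0134). Ccrl2, an atypical receptor that lacks chemokine signaling, was 445, 312 and 311 at 4 h of LPS against 11.3, 4.90 and 5.50 in control (log2 fold change 5.68, adjusted p = 6.76e-07). At 72 h of LPS it was still higher, by 1.82 (adjusted p = 0.0109). In all, 1 of the 10 receptors was higher and 2 were lower at 4 h of LPS, against 8.75% and 41.0% of tested genes, and 2 were higher and 5 lower at 72 h, against 14.9% and 16.1%.

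The genes whose pattern was most like that of a member were sought among 9477 other genes whose mean reached 1 FPKM, by Pearson's r of log2(FPKM + 0.1) over the 15 samples, which share their groups and libraries. They describe the shape of the pattern only. For Ccl3 they were Myd88, an adaptor of Toll-like receptors (r = 0.98), Slamf7 and Slc28a2, and for Ccl4 the collagenase Mmp13 (r = 0.97), Rnf31 and Sp140. For Ccl5 they were Agtrap (r = 0.98), the neutrophil chemokine Cxcl3 and Cept1. For Ccl2 they were the scavenger receptor Msr1 (r = 0.95), Psmd11 and Milr1, for Ccl7 Pik3ap1 (r = 0.94), Phf11a and BC094916, and for Ccl12 Tmem171 (r = 0.95), Dhx58 and Ifi204, of which the last 2 are interferon-induced. The lists of these 3 Ccr2 ligands shared no gene, but lists of 3 genes are too short to tell their patterns apart. For Ccl6 they were Shisa5 (r = 0.94), Lgals3bp and the platelet chemokine Ppbp, and for Ccl9 Rap1b (r = 0.92) and Dnaja1. For Ccl17 they were Dusp2 (r = 0.98), Etv3 and Il27, and for Ccl22 AI837181 (r = 0.94), the actin-bundling protein of mature dendritic cells Fscn1, and Lag3.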

How the data were processed

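Libraries of 15 BMDM samples were analysed from 1 table of FPKM values per gene, deposited by the authors, who estimated FPKM with StringTie and Ballgown per the methods. The submitters' processing notes name the builds GRCm38.p4 and mm10, and the aligner is not given in the sources used here. Raw counts were not used here. The table was used up to its last complete gene, and genes later in the alphabet, such as Zbtb46, were not analysed here. Values above 0 were whole numbers of fragments, within 0.01, in 99.993% of cases (all but Ctsb of 14485 genes), so that fragments were recovered for an alternative test; replicates differed by more than repeat sampling. Genes whose mean reached 0.1 FPKM were fitted with limma 3.58.1 (R 4.3.3) on log2(FPKM + 0.1), with an intensity trend and all 5 groups in 1 fit, and p-values were adjusted by the Benjamini-Hochberg method. The script was tested on simulated data. Calls used a fold above 1.5 or below 0.66 with p under 0.05, the limits the authors applied with edgeR, which needs counts and was not used here. Sums and ratios were compared by exact permutation tests.

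All 10 members are named. Of the other CC ligands and receptors those with a mean of at least 1 FPKM in any group are named, and for each member the 3 most alike genes, except for a few items that are not reported here. Members and lists were chosen with earlier results of these data known. Same-numbered replicates deviated together (r of deviations from the group means over 9486 genes above 0.1 in all 3 pairs) between RANKL 4 h and control (0.71 to 0.84), RANKL 72 h and control (0.14 to 0.32), LPS 4 h and control (0.44 to 0.62), RANKL 4 h and LPS 4 h (0.55 to 0.69) and RANKL 72 h and RANKL 4 h (0.16 to 0.25), so that the numbers were taken to pair these samples, and not for the 3 comparisons with LPS 72 h. Where the pairing comes from is not stated. The main fit, with its standard errors and adjusted p-values, did not use the pairing, and neither did the permutation tests. The replicate block was fitted over all 15 samples, including LPS 72 h, where the numbers were not taken to pair samples. Alternatives were other pseudocounts, filters, scalings, variance priors and call rules, the 2 groups alone, the replicate block, voom on fragments and leaving out each replicate.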

Additional observations from a re-analysis of the deposited data

Results flagged for a closer look

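Each value here is a log2 difference of 72 h minus 4 h in the limma fit, and each is flagged because the response to 1 stimulus differed between its times with an adjusted p under 0.05. Groups of 3 were too small for a test of single outlying samples. With RANKL the differences were -3.56 for Ccl5, -3.16 for Ccl2, -2.98 for Ccl7, -2.90 for Ccl4, -2.83 for Ccl3, -2.75 for Ccl12 and -2.07 for Ccl6. With LPS they were -5.58 for Ccl4, -4.34 for Ccl3, -3.80 for Ccl22, -3.11 for Ccl12, -3.11 for Ccl17, -2.05 for Ccl7, -1.19 for Ccl2 and -0.94 for Ccl9. Time under a stimulus and time in culture cannot be told apart in these groups.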

How the results depend on the processing

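Over 1352 refits of single members, 1281 kept their direction and side of the threshold, 23 lost the call, 27 gained it and 21 changed sign. The count for RANKL 4 h against control (1) was 2 with the 2 groups alone, 2 with the replicate block, and 0 to 4 with 1 replicate left out. By adjusted p it was 0, against 0.119% of tested genes. Fits with 1 replicate left out were counted for the members only. The count for LPS 72 h against control (4) was 2 by adjusted p and 2 to 5 with 1 replicate left out. The block changed no other call of a member. Centering on the median gene turned the sign of uncalled differences: Ccl6 for RANKL 4 h against LPS 4 h (-0.21), and Ccl17 (-0.054) and Ccl22 (-0.076) for RANKL 72 h against LPS 72 h. Without replicate 3 of every group, chosen after seeing the data, Ccl22 for RANKL 4 h against control was 0.041 and Ccl5 for LPS 72 h against LPS 4 h was 0.20. With 1 replicate left out, sign changes also concerned uncalled differences only. Against control with RANKL 4 h, Ccl22 ranged from -1.15 to 0.91, Ccl5 from -0.68 to 0.57 and Ccl6 from -0.45 to 0.045. Against control with LPS 72 h, Ccl7 ranged from -0.63 to 0.026 and Ccl9 from -0.59 to 0.10. Between LPS times, Ccl5 ranged from -0.34 to 0.22 and Ccl6 from -0.81 to 0.28. For RANKL 72 h, Ccl22 ranged from -0.27 to 0.55 against LPS 72 h and from -1.86 to 0.019 against RANKL 4 h. The cause of these changes was not tested. A filter of a mean of at least 1 FPKM left out Ccl17, whose 0 to 5 fragments outside LPS 4 h limit what can be said of it.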
